A study of Mus musculus with 8 samples.

Results

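The 10 genes described here encode channels and pumps that move calcium in and out of the cytoplasm of vascular cells: Ryr2, Itpr1, Itpr2, Atp2a2, Atp2b1, Atp2b4, Cacna1c, Cacnb2, Stim1 and Pln. They were taken by gene symbol from the count tables, which list 25526 symbols in each library, and all 10 passed the expression filter that left 13978 genes for testing. The series asked how growing aneurysms differ from aneurysms whose growth had stopped, and measured RNA in the aorta of male mice of genotype MFS (Fbn1C1041G/+) by bulk RNA sequencing. A group of 4 mice was 12 weeks old and a group of 4 was 2 years old. Every mouse carried the same missense allele of fibrillin-1, heterozygous in all tissues, and no wild-type mice of either age were analysed here, so that the comparison is one of age within this genotype. No treatment was named, and the segment of the aorta is not given in the sources used here. Library totals ran from 16251986 counts in 2-year library 3 to 33880690 in 2-year library 1. Libraries of an age differed by 22.5 to 145 times what counting alone gives (chi-square per degree of freedom), so each was counted as a replicate of its own.

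Contraction of the arterial wall is set by the calcium concentration in the cytoplasm of its smooth muscle cells. Calcium enters through voltage-gated channels in the plasma membrane, is released from the sarcoplasmic reticulum through ryanodine receptors and inositol trisphosphate (IP3) receptors, is pumped back into that store by SERCA pumps and is driven out of the cell by plasma membrane calcium pumps. When the store runs low, STIM proteins in its membrane sense the loss and open ORAI channels at the cell surface.

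At 2 years, 6 of the 10 genes were lower than at 12 weeks, and none was called higher. The genes that fell were Ryr2, Cacna1c, Cacnb2, Itpr1, Atp2b4 and Atp2a2, with decreases from 6.61-fold for Ryr2 to 1.89-fold for Atp2a2. The other 4 genes, Itpr2, Atp2b1, Stim1 and Pln, did not pass the test. A gene was called at a Benjamini-Hochberg adjusted p below 0.05 in edgeR's quasi-likelihood test, adjusted over all genes tested. Differences between the ages were common: 26.2% of all genes tested were called lower, 25.8% higher and 52.0% in either direction. Levels in the 2 groups did not overlap for any of the 6 genes that fell, a pattern that 25.3% of all genes tested showed in the same direction. The median log2 fold change (2 years over 12 weeks) of the 10 genes was -1.01, against -0.01 for all genes tested. With the trend on transcript length and GC content described below removed, these medians were -0.58 and -0.06. Summed over the 10 genes, the level was 2300 to 2809 CPM (counts per 1000000 counts of a TMM-scaled library) in the 12-week libraries and 1080 to 1472 CPM in the 2-year libraries. The largest parts of this sum were Atp2a2, Atp2b4 and Itpr1, at 988, 503 and 439 CPM on average at 12 weeks.

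Promoter sequence is shown for 3 genes whose RNA behaved differently, Ryr2, which had the largest decrease, Stim1, which had the smallest difference, and Pln, which varied most between the libraries of 12 weeks. Sequences come from RefSeq on the build GRCm38.p6, where 8 of the 10 genes had 12 entries in all, and Itpr1 and Atp2a2 had none. Each is the 150 bases before the annotated start of transcription, 5′ to 3′ on the strand of the gene, and capitals mark a match to a motif that was searched. The windows are chr13:12106946-12107095 on the minus strand for Ryr2, chr7:102267669-102267818 on the plus strand for Stim1 and chr10:53337536-53337685 on the plus strand for Pln.
Ryr2: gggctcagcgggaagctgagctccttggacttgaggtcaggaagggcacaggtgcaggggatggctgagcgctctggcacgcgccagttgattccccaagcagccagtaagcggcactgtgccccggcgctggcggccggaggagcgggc
Stim1: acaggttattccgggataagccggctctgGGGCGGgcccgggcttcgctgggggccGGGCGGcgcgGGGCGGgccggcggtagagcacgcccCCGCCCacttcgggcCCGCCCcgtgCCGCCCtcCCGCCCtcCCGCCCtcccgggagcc
Pln: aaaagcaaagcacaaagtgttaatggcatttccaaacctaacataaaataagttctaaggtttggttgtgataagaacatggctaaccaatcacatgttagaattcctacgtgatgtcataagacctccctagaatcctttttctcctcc
Over the 250 bases before the start, G and C made up 63.2% of the Ryr2 sequence, 78.4% of the Stim1 sequence and 32.8% of the Pln sequence, where the median of 32851 mouse promoters was 52.4%. The motifs, searched on both strands with overlapping matches counted, were the CArG box and the MEF2 box, both elements of muscle promoters, the GC box GGGCGG, the TATA box TATAAA and the MCAT element CATTCC. Stim1 had 8 GC boxes, Pln had a TATA box 219 bases before its start, outside the stretch shown, and Ryr2 had no match. None of the 12 entries held a CArG box, found in 1.47% of all promoters, or a MEF2 box, found in 2.92%. The GC box was in 32.7% of all promoters, the TATA box in 12.4% and the MCAT element in 12.6%, and Atp2b4 had the only MCAT match among the entries of these genes.

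**Figure D1:**
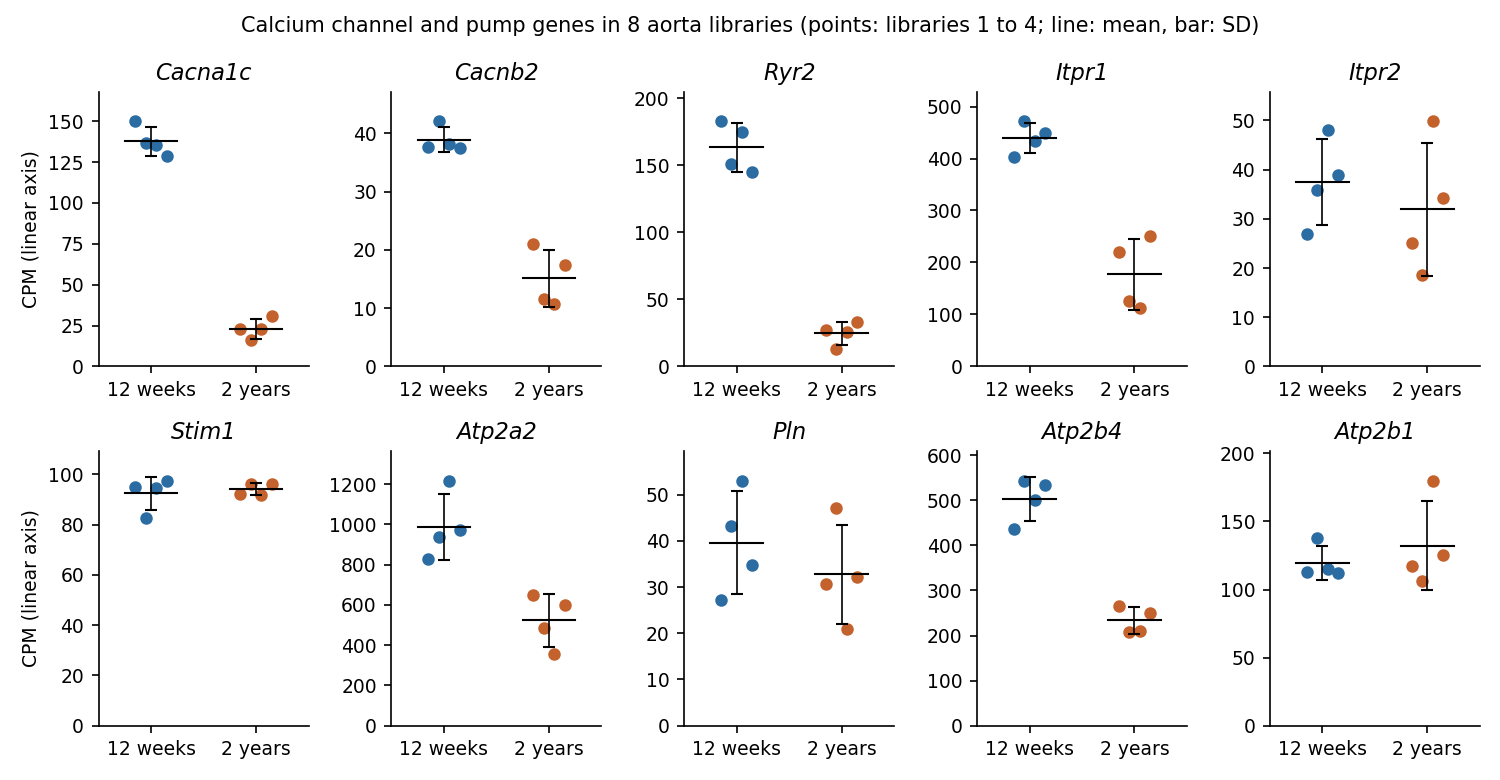
Level of each of the 10 genes in CPM on linear axes that start at 0. Points are the 4 libraries of each age, lines are means and bars are SD. Cacna1c, Cacnb2, Ryr2, Itpr1, Atp2a2 and Atp2b4 have no overlap between the ages, whereas Itpr2, Stim1, Pln and Atp2b1 overlap.

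Calcium entry through the voltage-gated channel was represented by Cacna1c, the pore-forming subunit of the L-type channel of arterial smooth muscle, and Cacnb2, a beta subunit that helps bring the pore to the membrane. Cacna1c was counted at 150, 137, 136 and 129 CPM in 12-week libraries 1 to 4 and at 23.0, 15.9, 22.7 and 30.8 CPM in 2-year libraries 1 to 4. The highest library at 2 years was thus far below the lowest at 12 weeks. The decrease was from 138 ± 8.78 CPM to 23.1 ± 6.1 CPM on average (SD, n = 4), and edgeR estimated it as -2.57 on the log2 scale with an SE of 0.19 (adjusted p = 2.19e-06). Cacnb2 was counted at 37.7, 42.0, 38.2 and 37.6 CPM at 12 weeks and at 21.0, 11.5, 10.7 and 17.4 CPM at 2 years. It was lower in all 4 old libraries, with libraries 2 and 3 the lowest. The decrease was from 38.9 ± 2.13 CPM to 15.2 ± 4.9 CPM on average (SD, n = 4), and edgeR estimated it as -1.35 on the log2 scale with an SE of 0.20 (adjusted p = 0.000248). Counts of Cacnb2 were 0.252 to 0.308 of those of Cacna1c in the 12-week libraries and 0.474 to 0.914 in the 2-year libraries, a log2 difference of 1.20 (exact permutation p = 0.0286, adjusted p = 0.0286 over 6 ratios). With the trend on transcript length described below removed, the difference was 0.25 and did not pass (exact permutation, adjusted p = 0.309). The smallest p that 4 against 4 libraries can give in this test is 0.0286.

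Release from the store was represented by 3 channels. Ryr2, the ryanodine receptor of heart muscle that smooth muscle also uses, was counted at 183, 151, 175 and 145 CPM at 12 weeks and at 27.1, 13.05, 25.4 and 33.2 CPM at 2 years. The old libraries lay in a separate, low range, with library 2 the lowest. The decrease was from 163 ± 18.3 CPM to 24.7 ± 8.46 CPM on average (SD, n = 4), and edgeR estimated it as -2.72 on the log2 scale with an SE of 0.24 (adjusted p = 8.95e-06). Itpr1, the main IP3 receptor gene in these libraries, was counted at 404, 471, 433 and 448 CPM at 12 weeks and at 219, 126, 113 and 252 CPM at 2 years. All old libraries were lower, libraries 2 and 3 more so than libraries 1 and 4. The decrease was from 439 ± 28.4 CPM to 178 ± 68.4 CPM on average (SD, n = 4), and edgeR estimated it as -1.30 on the log2 scale with an SE of 0.24 (adjusted p = 0.000989). Itpr2, another IP3 receptor, was counted at 26.9, 35.96, 48.1 and 39.0 CPM at 12 weeks and at 25.2, 18.6, 49.8 and 34.3 CPM at 2 years. The groups overlapped, and library 3 was the highest in each. The difference did not pass the test, with a log2 fold change of -0.23 (95% interval -0.86 to 0.39, edgeR adjusted p = 0.505), an interval that leaves room for a decrease or an increase.

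The balance among these receptors therefore differed between the ages. Itpr1 counts were 2.21 to 3.12 times those of Ryr2 at 12 weeks and 4.46 to 9.67 times at 2 years, a log2 difference of 1.41 (exact permutation p = 0.0286, adjusted p = 0.0286 over 6 ratios). Itpr2 counts were 0.0666 to 0.111 of those of Itpr1 at 12 weeks and 0.115 to 0.44 at 2 years, a log2 difference of 1.09 (exact permutation p = 0.0286, adjusted p = 0.0286 over 6 ratios). The value of 0.44 was that of 2-year library 3, and the other old libraries reached at most 0.148.

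Stim1, the calcium sensor of the store membrane, had nearly equal levels at the 2 ages. It was counted at 94.9, 82.7, 94.7 and 97.5 CPM at 12 weeks and at 92.0, 96.4, 91.9 and 96.1 CPM at 2 years. All old values lay within the range of the young ones. The log2 fold change was 0.03 (95% interval -0.21 to 0.26, edgeR adjusted p = 0.856), so that the interval holds changes up to about that size in either direction.

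Return of calcium to the store was represented by Atp2a2, which encodes SERCA2, the main SERCA pump of smooth and heart muscle, and by Pln, which encodes phospholamban, a small inhibitor of that pump. Atp2a2 was counted at 828, 936, 1217 and 974 CPM at 12 weeks and at 648, 487, 356 and 600.5 CPM at 2 years. The groups did not overlap, and library 3 was the highest of the young and the lowest of the old. The decrease was from 988 ± 164 CPM to 523 ± 130 CPM on average (SD, n = 4), and edgeR estimated it as -0.92 on the log2 scale with an SE of 0.20 (adjusted p = 0.00298). Pln was counted at 27.2, 43.3, 53.0 and 34.9 CPM at 12 weeks and at 30.7, 47.1, 20.9 and 32.3 CPM at 2 years. The groups overlapped, and among the old libraries the second was the highest and the third the lowest. Its log2 fold change was -0.27 (95% interval -0.83 to 0.28, edgeR adjusted p = 0.386). Counts of the inhibitor relative to the pump, Pln over Atp2a2, were 0.0329 to 0.0463 at 12 weeks and 0.0474 to 0.0968 at 2 years, a log2 difference of 0.65 (exact permutation p = 0.0286, adjusted p = 0.0286 over 6 ratios). Stim1 over Atp2a2 was 0.0779 to 0.115 at 12 weeks and 0.142 to 0.258 at 2 years, a log2 difference of 0.97 (exact permutation p = 0.0286, adjusted p = 0.0286 over 6 ratios).

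Both Atp2a2 and Pln had their highest value in 12-week library 3, which stood apart for heart muscle RNA. The summed level of 13 heart muscle markers was 1231 CPM in that library, 99.0 to 137 CPM in the other 12-week libraries and 84.0 to 161 CPM at 2 years. Nppa, an atrial hormone gene, was at 250.6 CPM there and at 0 in 12-week library 1 and in 2-year libraries 1, 2 and 4, and Myh6, the heart myosin gene, was at 428 CPM there. Of the 10 heart markers tested, 6 were called lower at 2 years and none higher, where 26.2% of all genes tested were lower. Of these markers, Myl3, Ttn and Actn2 were still called lower with library 3 of both ages left out. Myh6, Tnni3 and Mybpc3 were then not called (edgeR adjusted p = 0.146, 0.0595 and 0.15). Without library 3 of either age, Atp2a2 was still called lower (log2 fold change -0.65, edgeR adjusted p = 0.00949) and Pln had a log2 fold change of 0.07 (edgeR adjusted p = 0.815). Ryr2, whose RNA is also abundant in heart muscle, was highest in 12-week library 1 (183 CPM) and next highest in 12-week library 3 (175 CPM). Its log2 fold change without both libraries 3 was -2.70 (edgeR adjusted p = 0.000192). The part of heart muscle RNA in the levels of these genes was not tested. Skeletal muscle markers summed to 271 CPM in 12-week library 2, 102 CPM in library 3 and 2.60 to 42.7 CPM in the other libraries, and 1 of the 8 tested was called lower. Fat cell markers also summed highest in library 3 of each age. Their sum was 553.6 CPM there and 103 to 192.5 CPM in the other 12-week libraries. In 2-year library 3 it was 770.5 CPM, against 242.9 to 467.2 CPM in the other old libraries. None of the 6 fat cell markers was called in the fit on all libraries.

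Expulsion from the cell was represented by 2 plasma membrane pumps, Atp2b4 (PMCA4) and Atp2b1 (PMCA1). Atp2b4 was counted at 436, 543, 500 and 534 CPM at 12 weeks and at 267, 208, 209.3 and 250.4 CPM at 2 years. All old libraries were well below the young ones, and the spread within each age was small. The decrease was from 503 ± 48.9 CPM to 234 ± 29.4 CPM on average (SD, n = 4), and edgeR estimated it as -1.11 on the log2 scale with an SE of 0.14 (adjusted p = 8.81e-05). Atp2b1 was counted at 113, 138, 115 and 112 CPM at 12 weeks and at 117, 106, 180 and 125 CPM at 2 years. The groups overlapped and 2-year library 3 was the highest. Its log2 fold change was 0.15 (95% interval -0.22 to 0.52, edgeR adjusted p = 0.489), and without 2-year library 3 it was -0.04 (edgeR adjusted p = 0.799). Counts of Atp2b4 were 3.85 to 4.77 times those of Atp2b1 at 12 weeks and 1.16 to 2.27 times at 2 years, a log2 difference of -1.23 (exact permutation p = 0.0286, adjusted p = 0.0286 over 6 ratios).

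**Figure D2:**
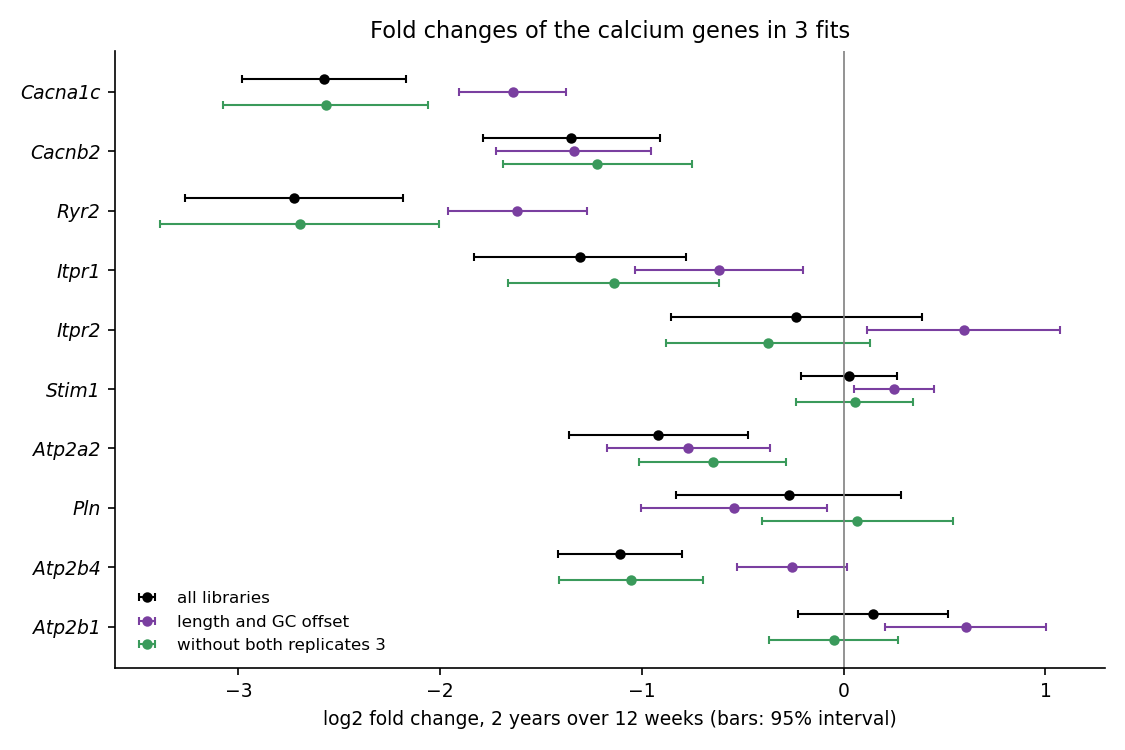
Log2 fold change of each gene (2 years over 12 weeks) with its 95% interval, from the fit on all 8 libraries, from the fit that removes a per-library trend on transcript length and GC content, and from the fit without library 3 of either age. Ryr2 and Cacna1c stay lowest in each fit, while Itpr2, Stim1 and Atp2b1 lie to the right of 0 once the length and GC trend is removed.

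Most of these genes have long transcripts, and longer transcripts had lower fold changes in these libraries. When genes were divided into 10 bins of transcript length, the median log2 fold change went from 0.60 in the bin of shortest transcripts to -0.64 in the bin of longest. Ryr2, Itpr1, Itpr2, Atp2b1, Atp2b4 and Cacna1c all fall in the longest bin. Within that bin 1.66% of genes had a lower fold change than Ryr2 and 2.02% a lower one than Cacna1c, so both stood near its bottom. Atp2b4, with 23.5% of genes below it, and Itpr1, with 16.9%, were closer to the middle, and Atp2b1 was near the top with 85.1% below it. Cacnb2 (3945 nt) and Atp2a2 (4486 nt) have transcripts of moderate length, and 6.29% and 15.8% of genes in their bins were lower. Whether the trend reflects RNA quality, the library preparation or the tissue was not tested.

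With a per-library trend on transcript length and GC content removed as an offset, 6 of the 10 genes were called lower and 3 higher, where 27.7% of all genes in that fit were called lower and 23.1% higher. Ryr2 (log2 fold change -1.62), Cacna1c (-1.64), Cacnb2 (-1.34), Atp2a2 (-0.77) and Itpr1 (-0.62) were lower in both fits. The decrease of Ryr2 was then 3.07-fold and that of Cacna1c 3.12-fold. Atp2b4 lost its call, with a log2 fold change of -0.26 (edgeR adjusted p = 0.106). Pln, whose transcript of 2334 nt is the shortest of the 10, was called lower at -0.54 (edgeR adjusted p = 0.0496). It lost that call when the replicate block was added (edgeR adjusted p = 0.0706) or when library 3 of both ages was left out. Itpr2 (0.59, edgeR adjusted p = 0.0402), Atp2b1 (0.60, edgeR adjusted p = 0.0176) and Stim1 (0.25, edgeR adjusted p = 0.0392) were called higher. On values with the trend removed, the ratios Atp2b4/Atp2b1, Itpr2/Itpr1, Itpr1/Ryr2 and Stim1/Atp2a2 still passed their exact permutation test, whereas Cacnb2/Cacna1c and Pln/Atp2a2 (log2 difference 0.23, adjusted p = 0.314) did not.

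**Figure D3:**
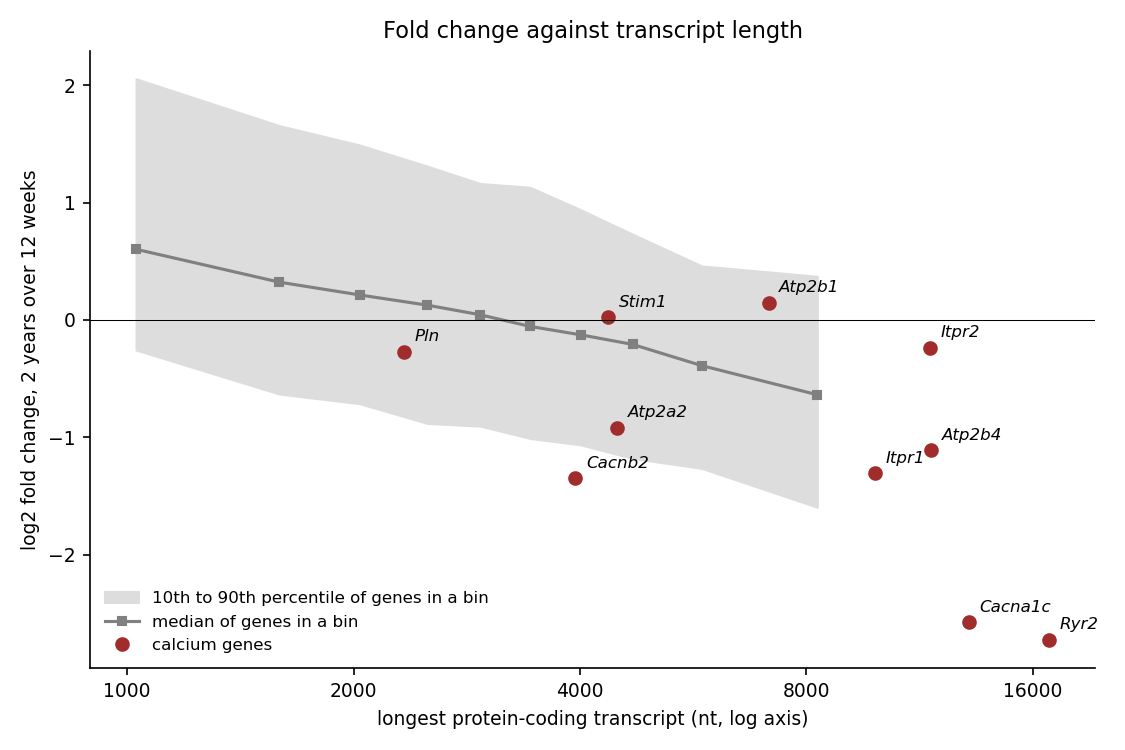
Log2 fold change (2 years over 12 weeks) against the length of the longest protein-coding transcript on a log axis. Grey squares are the medians of 10 bins of tested genes, the band runs from the 10th to the 90th percentile, and red points are the 10 calcium genes. The last bin is drawn at its median length of 8270 nt, and Ryr2 and Cacna1c, to its right, lie below the 10th percentile of that bin.

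Levels of cell type markers also differed between the ages, where 25.8% of all genes tested were called higher and 26.2% lower. Of 10 smooth muscle markers, 7 were called lower at 2 years and none higher, and their summed level was 33795 to 40740 CPM at 12 weeks and 19774 to 29229 CPM at 2 years, so that the tissue carried the markers of arterial media at both ages. Myh11, the smooth muscle myosin, fell with a log2 fold change of -1.72, while Acta2, smooth muscle actin, had a log2 fold change of -0.38 and was not called. Macrophage markers were higher for 8 of 8 genes, with sums of 608 to 839 CPM against 2284 to 3410 CPM. B and plasma cell markers were higher for 6 of 6 genes, with sums of 1.58 to 2.44 CPM against 236 to 1220 CPM, and T and NK cell markers for 5 of 5 genes tested, with sums of 4.00 to 9.26 CPM against 33.1 to 53.6 CPM. Red blood cell markers rose for 5 of 5 genes, with sums of 416 to 677 CPM against 1674 to 7357 CPM. Fibroblast markers had 1 of 6 genes lower, and their sum was highest in 2-year library 3 (7462 CPM). None of the 6 endothelial markers was called. In bulk tissue, fewer cells of a type and less RNA per cell cannot be told apart, and the part that these differences play in the changes of the calcium genes was not tested.

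Relative to the mean log2 CPM of the 10 smooth muscle markers in the same library, 4 genes were still lower at 2 years. Ryr2 differed by -1.98, Cacna1c by -1.80, Cacnb2 by -0.60 and Itpr1 by -0.57 on the log2 scale, and in each case all 4 old libraries were below all young ones (exact permutation p = 0.0286, adjusted p = 0.0476 over 10 genes). Atp2b1, at 0.94, and Stim1, at 0.84, were higher relative to the markers in all 4 old libraries (exact permutation p = 0.0286, adjusted p = 0.0476). Atp2b4 (-0.30, adjusted p = 0.0816), Atp2a2 (-0.13, adjusted p = 0.543), Itpr2 (0.52, adjusted p = 0.25) and Pln (0.53, adjusted p = 0.254) did not pass this exact permutation test. With the length and GC trend removed from these values, the decreases were smaller, at -0.77 for Ryr2, -0.79 for Cacna1c and -0.54 for Cacnb2 (exact permutation, adjusted p = 0.0408 each). That of Itpr1 turned to 0.18 (adjusted p = 0.286), and Atp2a2 and Atp2b4 also turned from below 0 to above it. More of the 10 genes then passed as higher than as lower. The reference also mattered for most genes. Against Myh11 alone, which itself fell, Itpr1, Cacnb2, Atp2a2 and Atp2b4 turned from below 0 to above it, and 8 genes passed the exact permutation test (adjusted p = 0.0357), of which only Ryr2 and Cacna1c (at -0.81) were lower. Against Acta2 alone, Ryr2 was at -2.38 and Cacna1c at -2.19, and no gene passed after adjustment (smallest adjusted p = 0.0571, exact permutation test).

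Levels of different genes were compared per kilobase of the longest protein-coding transcript. At 12 weeks the order was Atp2a2 at 220.3 CPM per kb, Itpr1 at 44.5, Atp2b4 at 42.9, Stim1 at 21.2, Pln at 17.0, Atp2b1 at 16.8, Cacna1c at 10.5, Cacnb2 at 9.86, Ryr2 at 9.71 and Itpr2 at 3.21. Itpr1 and Atp2b4 were closer than their spread, as were Pln and Atp2b1, and as were Cacna1c, Cacnb2 and Ryr2. At 2 years Atp2a2 was still the highest, at 117 CPM per kb. Stim1 (21.6), Atp2b4 (19.9), Atp2b1 (18.6) and Itpr1 (18.0) then lay together with Pln (14.03), within the coefficient of variation of 38.5% that Itpr1 had at that age. Cacna1c (1.75) and Ryr2 (1.47) came last, below Itpr2 (2.74) and Cacnb2 (3.84). The coefficient of variation between libraries of an age ran from 5.48% for Cacnb2 to 28% for Pln at 12 weeks, and from 2.63% for Stim1 to 42.2% for Itpr2 at 2 years.

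In 5 gene families the member with the highest level at 12 weeks had a smaller share at 2 years, measured as a percent of the family's CPM per kb and given as a description. Cacna1c was 52.8 ± 3.37% of the pore subunits at 12 weeks and 23.8 ± 2.06% at 2 years (SD, n = 4), while Cacna1h, a T-type pore, went from 6.58 ± 1.84% to 24.6 ± 4.73% while its own level was not called different, or was called higher with the length and GC trend removed (log2 fold change 1.29, edgeR adjusted p = 0.000544). Cacna1d, another L-type pore, went from 26 ± 3.85% to 32.8 ± 4.86%, above Cacna1c. Atp2b4 was 71.4 ± 1.87% of the plasma membrane pumps at 12 weeks and 51.9 ± 7.25% at 2 years, and Atp2b1 went from 27.9 ± 2.01% to 47.6 ± 7.37%. Library 3 of the 2-year group was the one in which Atp2b1 exceeded Atp2b4, at 58.4% against 41.3%. Itpr1 was 88.4 ± 1.67% of the IP3 receptors at 12 weeks and 77 ± 8.31% at 2 years. Atp2a2 was 91 ± 2.55% of the SERCA pumps at 12 weeks and 80.5 ± 2.95% at 2 years, and Atp2a3, a SERCA pump of blood and endothelial cells, went from 6.87 ± 1.15% to 18.5 ± 2.73%. Ryr2 went from 97 ± 3.01% to 92.3 ± 1.5% of the ryanodine receptors, and the family as a whole from 10.02 to 1.59 CPM per kb. Cacnb2 went from 27.5 ± 2.68% to 19.7 ± 5.75% of the beta subunits, of which Cacnb3 was the largest at both ages, and Stim1 made up 76.4 ± 4.05% and 80 ± 2.58% of the STIM proteins. Gene counts do not separate splice forms, which many of these genes have.

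**Figure D4:**
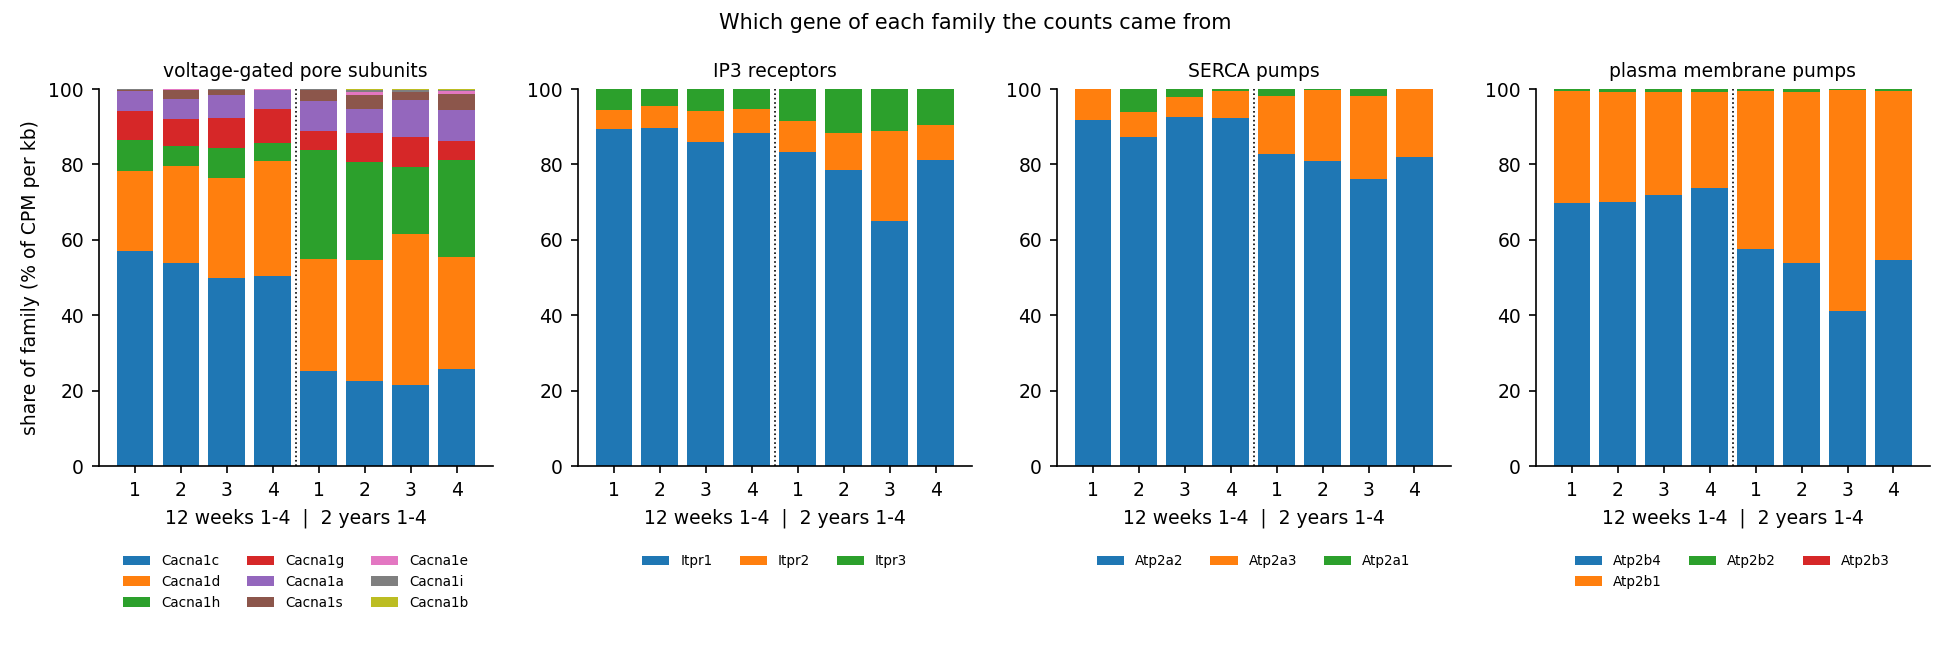
Share of each gene in its family, in percent of the family's CPM per kb, stacked to 100% for each library (12 weeks 1 to 4, then 2 years 1 to 4, divided by a dotted line). Cacna1c, Itpr1, Atp2a2 and Atp2b4 take smaller shares in the 2-year libraries, and Cacna1h, Itpr2, Atp2a3 and Atp2b1 larger ones.

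A wider list of 69 calcium-handling genes gives the setting. Of its 60 tested genes, 15 were called higher and 21 lower, where 25.8% of all genes tested were higher and 26.2% lower, so that the higher calls were near the background. The median log2 fold change was -0.26, and with the length and GC trend removed 14 were higher and 19 lower. The 9 genes too low to test were Atp2b3, Atp2c2, Sln, Strit1, Ryr3, Trpc6, Cacna1b, Cacna1i and Cacna2d4. Subunits of voltage-gated channels had 7 of 12 tested genes lower and none higher, and 5 lower and 1 higher (Cacna1h) with the length and GC trend removed. Cacna1g, a T-type pore, was counted at 11.8 to 14.7 CPM at 12 weeks and 2.94 to 5.33 CPM at 2 years (log2 fold change -1.78, edgeR adjusted p = 3.19e-05, and -0.997 with the trend removed). Cacnb1, a beta subunit, was at 10.1 to 14.02 CPM and then 4.25 to 4.83 CPM (log2 fold change -1.33, edgeR adjusted p = 5.92e-05). The other genes of this group that fell, Cacna1a, Cacna1d, Cacna2d1, Cacnb3 and Cacnb4, of which Cacna1a and Cacnb4 were not called with the trend removed, are named here after their values were seen, as are all genes below that are given without levels.

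Among other store release channels and the partners of such channels, 6 of 15 tested genes were lower and 4 higher. Over all genes tested, 26.2% were lower and 25.8% higher. With the length and GC trend removed, 7 were lower and 2 higher, where 27.7% of all genes in that fit were lower and 23.1% higher. The group's median log2 fold change went from -0.88 to -0.45. Irag1, the IP3 receptor partner through which cGMP-dependent kinase restrains calcium release, was counted at 648 to 698 CPM at 12 weeks and 161 to 356 CPM at 2 years (log2 fold change -1.46, edgeR adjusted p = 0.000329). Casq1, a calcium-binding protein of the store that is best known from skeletal muscle, was at 20.6 to 31.8 CPM and then 8.00 to 13.2 CPM (log2 fold change -1.33, edgeR adjusted p = 0.000237), and its highest library was 12-week library 2, which also led for skeletal muscle markers. Tpcn2, a lysosomal channel, was at 21.1 to 34.1 CPM and then 9.04 to 13.9 CPM (log2 fold change -1.22, edgeR adjusted p = 0.000521). Jph2, Asph and Hrc were the other genes of this group that fell. Sri, which encodes the ryanodine receptor modulator sorcin, was at 60.5 to 66.6 CPM and then 95.2 to 116 CPM (log2 fold change 0.73, edgeR adjusted p = 0.000447). Calr, Fkbp1a and Fkbp1b also rose, although with the length and GC trend removed these 3 were not called. Tpcn1, the paralog of Tpcn2, was not called (log2 fold change -0.17, edgeR adjusted p = 0.318). Itpr3, another IP3 receptor, was not called (log2 fold change -0.22, edgeR adjusted p = 0.268) until the trend was removed, when it was called higher (0.60, edgeR adjusted p = 0.00245).

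Of the store-operated and TRP channels, 4 of 14 tested genes were higher and 3 lower, close to the shares of all genes tested (25.8% and 26.2%). Orai1, the pore that STIM1 opens, was counted at 8.09 to 13.6 CPM at 12 weeks and 19.9 to 24.97 CPM at 2 years (log2 fold change 1.03, edgeR adjusted p = 0.000782), while Stim1 was not called in the same fit. Trpc4, a cation channel activated through receptors, was at 0.122 to 0.296 CPM at 12 weeks and at 5.05, 4.86, 0.9753 and 10.3 CPM in 2-year libraries 1 to 4 (log2 fold change 4.59, SE 0.65, edgeR adjusted p = 0.000214), a rise from a level of few counts. Saraf and Trpv2 rose as well, Saraf without a call when the trend was removed, and Pkd2, Trpm4 and Trpm7 fell. Of the other pumps and exchangers, 1 of 7 tested genes was higher and 2 lower. Atp2a3 was at 72.8 to 78.8 CPM at 12 weeks and 106 to 135 CPM at 2 years (log2 fold change 0.68, edgeR adjusted p = 0.000657). Slc8a1, the main sodium-calcium exchanger, and Atp2b2 were the genes that fell, and with the length and GC trend removed Slc8a1 was called higher and Atp2b2 was not called. Atp2c1 (log2 fold change -0.17) and Slc8a2 (-0.16) were not called.

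Mitochondrial uptake genes had 4 of 7 tested genes higher and 1 lower, where 25.8% of all genes tested were higher and 26.2% lower. With the length and GC trend removed, 3 were higher and 1 lower, where 23.1% of all genes in that fit were higher and 27.7% lower. The group's median log2 fold change went from 0.54 to 0.06. Mcub, an inhibitory subunit of the uniporter, was counted at 4.74 to 7.35 CPM at 12 weeks and 20.4 to 27.9 CPM at 2 years (log2 fold change 1.99, edgeR adjusted p = 5.48e-06, and 1.39 with the trend removed). Micu2 and Smdt1 also rose (Smdt1 not with the trend removed), Micu3 fell, and Mcu, the pore itself, was not called. Calm3, a calmodulin gene, rose, and the calmodulin-dependent kinase genes Camk2d and Camk2g fell. Camk2g was at 200.3 to 227 CPM and then 99.4 to 115 CPM (log2 fold change -0.96, edgeR adjusted p = 5.48e-05). Calm2 was not called (log2 fold change 0.13, edgeR adjusted p = 0.437) until the length and GC trend was removed, when it was called lower (-0.58, edgeR adjusted p = 0.000879).

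**Figure D5:**
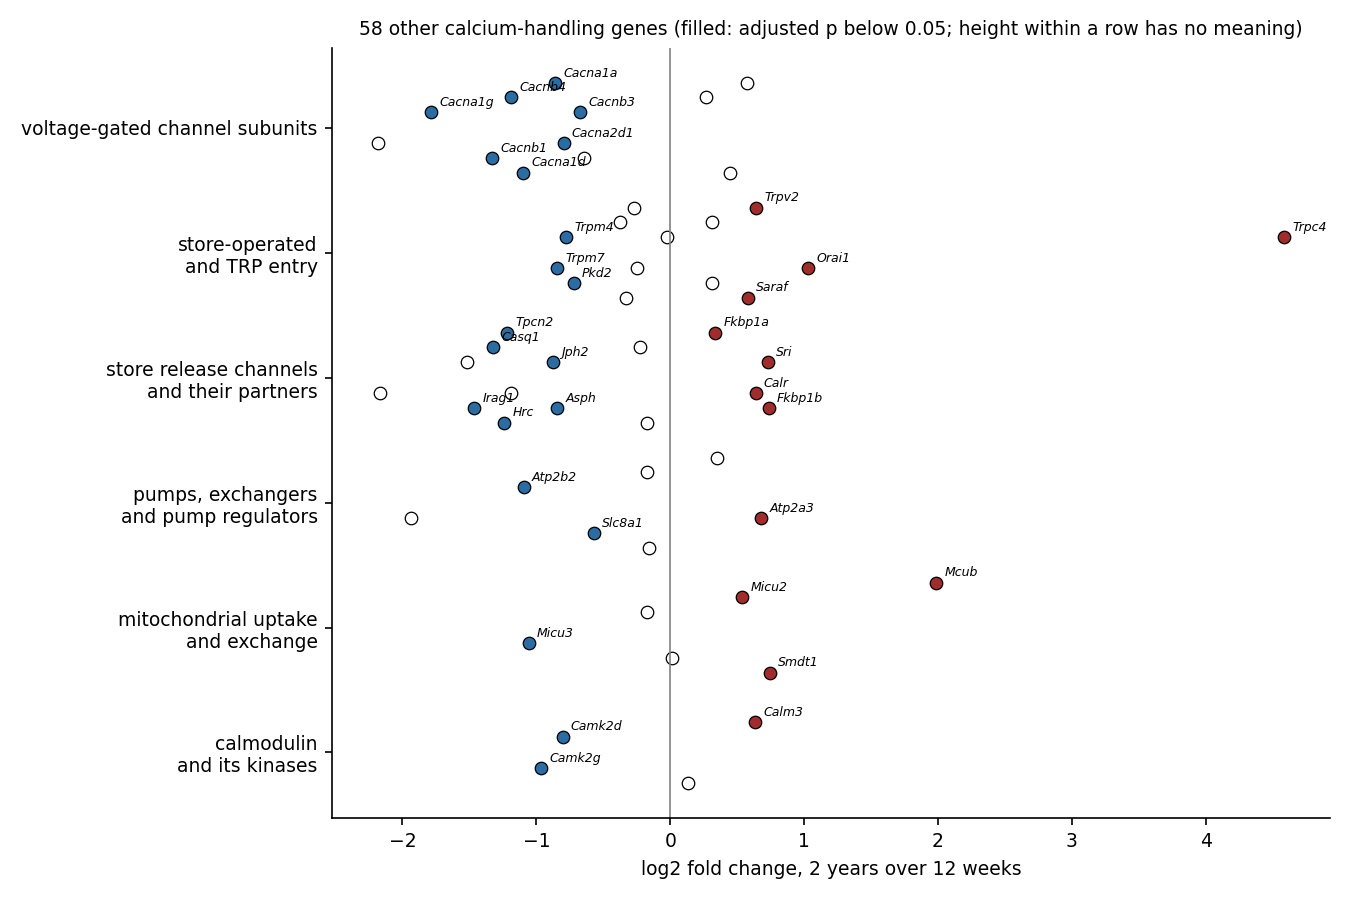
Log2 fold change (2 years over 12 weeks) of the tested genes of the wider calcium-handling list that are reported here, in rows by role. Filled points passed the test and are named, red for higher and blue for lower, open points did not, and the height within a row has no meaning. Called genes of the voltage-gated channel row all lie to the left of 0, and called genes of the other rows lie on both sides.

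Variation between mice of the same age was compared among the genes as the Pearson correlation of deviations of log2 CPM from the group means over the 8 libraries. It is given as a description, since all values share the same libraries and scaling, and the length and GC trend was not removed from them. Ryr2 and Cacna1c varied together (0.95), as did Itpr1 and Cacnb2 (0.92), Itpr1 and Atp2b4 (0.82) and Itpr1 and Atp2a2 (0.78). Itpr2 and Atp2b1, both highest in 2-year library 3, had a correlation of 0.75. Pln was at -0.50 with Ryr2 and at 0.61 with Atp2a2. Among the 13212 tested genes that averaged 1 CPM or more, those closest to Ryr2 by this measure were Myo18b (0.99), Zdhhc3 (0.98) and Amigo1 (0.97), those closest to Itpr1 were Atp11a, Kif13a and Adgrl2 (0.99 each), and those closest to Pln were Tbx15 (0.97), Nsun3 (0.96) and Acot6 (0.95). Myo18b, a myosin of striated muscle, also fell with age (log2 fold change -2.27, edgeR adjusted p = 6.19e-06), whereas Zdhhc3 did not pass the test (log2 fold change 0.05, edgeR adjusted p = 0.719).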

How the data were processed

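Raw counts per gene symbol were deposited for 8 aorta libraries, per the labels, from column-purified total RNA sequenced on a NovaSeq instrument. The genome build was GRCm39, per the submitters' processing notes. Which aligner and counting tool were used, and how strand and reads matching several genes were handled, is not given in the sources used here. Totals were 16251986 to 33880690 counts, and 8096 of 25526 symbols had 0 counts everywhere.

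From these, 13978 genes passed filterByExpr and were tested with edgeR 4.0.16 (R 4.3.3) by the robust quasi-likelihood F test on TMM-scaled counts, with age as the only term and Benjamini-Hochberg adjustment over all genes tested (threshold 0.05). Log2 fold changes are 2 years over 12 weeks. CPM uses TMM-scaled library sizes. Within-library ratios added 0.5 to each count, the markers' log2 CPM used a prior count of 2, and both were tested by two-sided exact permutation over 70 assignments. Transcript lengths and GC came by symbol from GENCODE M21 (GRCm38, longest protein-coding transcript) for 99% of tested genes, and entered as an offset (natural splines with 4 degrees of freedom each). Alternatives were other scalings, no filter, DESeq2 1.42.0, limma 3.58.1 voom, the replicate block and left-out libraries. The edgeR fit with TMM scaling, DESeq2 and limma voom were tested on simulated counts without a length or GC trend. The fits with the offset, the replicate block or left-out libraries were not.

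The 10 genes, the wider list and the marker lists were chosen with earlier results of these data known. Named from the wider list were up to 6 called genes per direction with the smallest p and 4 uncalled genes with the highest mean CPM. A gene taken by this rule may be left unreported here. For Ryr2, Itpr1 and Pln the 3 most correlated genes were named. The labels do not say how tissue was divided among libraries beyond 4 mice per age, so p-values measure the spread between these libraries.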

Additional observations from a re-analysis of the deposited data

Results flagged for a closer look

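Among 32 groups of 4 libraries tested for a value far from the rest (the 10 genes and the 6 ratios at each age), 3 were flagged by Dixon's criterion, where chance flags about 1 in 20 groups. Atp2b1 was highest in 12-week library 2 (137.8 CPM, with a gap to its nearest neighbour of 0.887 of the group's range), and Cacnb2 was highest in the same library (42.05 CPM, gap 0.862). The ratio of Itpr2 to Itpr1 was highest in 2-year library 3 (0.4399, gap 0.899), the library that also had the highest Itpr2 level and the lowest Itpr1 level of its group.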

How the results depend on the processing

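Of 670 fold changes and ratio changes recomputed under alternatives, 547 kept their direction and their side of the threshold, 85 no longer passed it, 9 newly passed it and 29 changed sign. The 670 include exact tests of ratios and marker-relative changes that could not pass whatever the values, as described in the next paragraph. The 6 genes called lower were the same with RLE or upper-quartile scaling, no filter, DESeq2, limma voom, each library left out, both libraries 3 left out, and the replicate block. Upper-quartile scaling moved the median log2 fold change of all genes to 0.08. Same-numbered libraries did not vary together (correlations -0.308, -0.116, 0.051 and 0.025), so the numbers do not pair them, and the replicate block called 6432 genes, 6320 of them shared with the 7272 called without it. Genes called higher numbered 3 with the length and GC offset, 2 with that offset and the replicate block, and 3 with the offset and without both libraries 3, against 0 otherwise. Itpr2 turned to 0.594, 0.566 and 0.448 in those 3 fits, Calm2 to -0.577, -0.579 and -0.566, Atp2c1 to 0.096, 0.077 and 0.192, Tpcn1 to 0.139, 0.139 and 0.057, and Slc8a2 to 0.321, 0.304 and 0.398. Genes near 0 changed sign when libraries were left out: Atp2b1 (range -0.040 to 0.218 with 1 library left out) was -0.040 without 2-year library 3 and -0.050 without both libraries 3, Stim1 (range -0.029 to 0.046) was -0.029 without 12-week library 2 and -0.009 without 2-year library 2, and Pln was 0.067 without both libraries 3.

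The exact tests of ratios have little room when libraries are left out. Of 6 ratios 0 passed with any 12-week library left out and 5 or 6 with any 2-year library left out, of 10 marker-relative changes 0 and 6 passed, and 0 of each passed without both libraries 3, where the smallest possible p is 0.1, or by paired differences (the replicate block), where it is 0.125. With Acta2 alone as reference 0 passed. Marker-relative changes that changed sign were those of Itpr1 (0.407 against Myh11 alone, 0.179 with the length and GC trend removed), Atp2a2 (range -0.213 to 0.015 with 1 library left out, 0.015 without 12-week library 3, 0.121 without both libraries 3, 0.058 with the trend removed, 0.852 against Myh11), Atp2b4 (0.582 with the trend removed, 0.684 against Myh11) and Cacnb2 (0.385 against Myh11). The cause of these changes was not tested. The lowest count of any of the 10 genes was 165, for Cacnb2 in 2-year library 3, and shallower sequencing was not tried.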
